A study of Mus musculus with 3 samples.

Results

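Levels of the transcription factors that drive the mesenchymal state and of the cadherins they are known to control were examined in wounded primary mouse fibroblasts. The set held 10 genes, Snai1, Snai2, Twist1, Twist2, Zeb1, Zeb2, Prrx1, Cdh1, Cdh2 and Cdh11. They were picked by gene name out of 43472 rows in the file, with earlier results of these data known. Each name was found in 1 row. The cells were grown from collagenase-digested tail tips of C57BL/6 mice, wounded by a scratch, and treated for 5 h with a soluble micrograft (MG), the cell-depleted extract of disrupted and filtered mouse skin, diluted in growth medium, together with PD0325901, an inhibitor of the kinase MEK, which activates ERK. All 3 libraries carried both MG and PD0325901 and were biological replicates 1, 2 and 3 of this 1 condition. The labels do not say whether the replicates came from separate mice. No untreated, MG-only or unwounded library was analysed here, so the values describe levels under MG + PD0325901 and their spread between replicates, and no effect of MG or of MEK inhibition was tested.

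The Snail (Snai1, Snai2), Twist (Twist1, Twist2) and Zeb (Zeb1, Zeb2) proteins are DNA-binding factors that bind short E-box sequences. Snail and Zeb factors repress epithelial genes, among them Cdh1, which encodes E-cadherin, the adhesion protein that holds epithelial cells together. Twist1 is known to favour Cdh2, which encodes N-cadherin, and Prrx1 is a homeobox factor of mesenchyme in the limb, the face and the dermis. Loss of E-cadherin with gain of N-cadherin is the classical cadherin switch of an epithelial to mesenchymal transition. Fibroblasts are mesenchymal from the start, and many of them also carry cadherin-11, the product of Cdh11, which joins fibroblasts to one another in the dermis and in synovium.

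Promoter sequences from RefSeq on GRCm38.p6, covering 250 bases before to 50 bases after a transcription start, were matched for 5 of the 10 genes: Snai1, Twist1, Twist2, Zeb2 and Prrx1. Snai2, Zeb1, Cdh1, Cdh2 and Cdh11 had no entry. The windows were searched on both strands for the Snail-type E-box CACCTG (or CAGGTG), for any E-box CANNTG, of which CACCTG is 1 form, and for the AP-1 site TGACTCA (or TGAGTCA). AP-1 is the Fos and Jun family of factors that acts below ERK. Printed are the windows of Snai1 and Zeb2 that held a match, and that of Prrx1, the gene whose level differed most between replicates, with the matched letters in capitals.
Snai1, chr2:167537945-167538244, plus strand: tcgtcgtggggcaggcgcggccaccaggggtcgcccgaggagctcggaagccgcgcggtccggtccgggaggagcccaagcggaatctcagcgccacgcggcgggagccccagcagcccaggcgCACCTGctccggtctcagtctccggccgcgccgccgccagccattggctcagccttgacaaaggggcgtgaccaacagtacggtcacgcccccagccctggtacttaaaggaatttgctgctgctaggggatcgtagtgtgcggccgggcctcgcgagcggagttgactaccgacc
Zeb2, chr2:45110228-45110527, minus strand: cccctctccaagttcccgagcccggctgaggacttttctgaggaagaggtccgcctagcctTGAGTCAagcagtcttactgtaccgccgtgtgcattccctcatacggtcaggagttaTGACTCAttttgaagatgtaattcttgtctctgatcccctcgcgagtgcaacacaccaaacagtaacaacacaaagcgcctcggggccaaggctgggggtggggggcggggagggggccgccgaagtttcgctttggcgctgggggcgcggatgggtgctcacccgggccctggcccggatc
Prrx1, chr1:163313601-163313900, minus strand: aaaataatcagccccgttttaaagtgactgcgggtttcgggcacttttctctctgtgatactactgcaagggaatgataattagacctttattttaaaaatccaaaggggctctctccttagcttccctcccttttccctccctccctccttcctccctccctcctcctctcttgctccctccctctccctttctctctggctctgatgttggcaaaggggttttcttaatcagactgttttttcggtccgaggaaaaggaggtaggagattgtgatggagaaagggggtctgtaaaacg

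The Snai1 window held 1 Snail-type E-box, at position -126 counted from the start site, and this was also its 1 match to CANNTG. Of 32851 RefSeq promoters of the same length, 20.2% held CACCTG and 72.3% held CANNTG. The Zeb2 window belongs to a start that lies inside the annotated gene and held 2 AP-1 sites, TGAGTCA at -189 and TGACTCA at -132, a sequence present in 5.2% of all promoters. That share is for a single window, and this window was picked for its match among all windows searched. No match to any of these sequences was found in the windows of Prrx1, Twist1 and Twist2 or at the other 3 Zeb2 starts. These matches describe letters in the windows, and binding was not measured here.

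The authors' values are normalized counts, that is, the reads on a gene divided by 1 size factor for each library. Recovered read counts summed to 17244505 to 27037783 per library. The upper limit for a gene with 0 reads, set at 3 reads, was 2.11 to 3.56 normalized counts, which accounts for counting error and not for duplicated molecules. The label of the cells was checked against markers. All 9 fibroblast markers were detected, which here means that no library fell below 10 normalized counts, led by Col1a1 at 185951 ± 52184 (SD, n = 3). Of all rows in the file 28.1% were detected. Of 8 keratinocyte markers 1 was detected, Krt10, their summed level was 44.4 to 92.0 normalized counts, and Krt1, Krt15 and Dsg3 had no read. Of 6 leukocyte and 5 endothelial markers 0 were detected, with summed levels of 14.8 to 71.1 and 5.93 to 190 normalized counts. Of 5 markers of skeletal muscle 1 was detected, Des. The libraries were unlike in some genes of tendon and cartilage, which tail tips contain. The 3 tendon markers summed to 2734, 343 and 1657 normalized counts in replicates 1, 2 and 3. Scx gave 2470, 168 and 1381 and Mkx 139, 47.9 and 169, both lowest in replicate 2, whereas Tnmd had 124, 127 and 107. The 5 markers of cartilage and bone summed to 12309, 822 and 1399, of which Col2a1 gave 11538, 229 and 833. Acan, at 4.34, 0 and 36.7, was also lowest in replicate 2. Sox9 had 171, 149 and 117, Runx2 had 596, 444 and 411, and Sp7 had no read. Among fibroblast markers Thy1 had 2031, 15760 and 1652, with replicate 2 high, and Lum had 5073, 289 and 1164, with replicate 1 highest and replicate 2 lowest. In these bulk libraries more cells of a type cannot be told apart from more RNA per cell.

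Of the 10 genes 9 were detected, against 28.1% of all rows, and Cdh1 was not. Replicate 2 was the highest of the 3 libraries for Zeb1, Zeb2, Prrx1, Cdh2 and Cdh11, replicate 3 for Snai1 and Twist2, and replicate 1 for Snai2 and Twist1. The highest library was more than 2-fold above the lowest for 2 of the 9 genes, Prrx1 and Twist2, beside 22% of the 12204 detected genes. On the scale of log2(normalized count + 1) the SD between replicates had a median of 0.35 over the 9 genes and of 0.30 over every detected gene. The plot of normalized counts by library shows 9 genes well above the value of 3 reads, and Cdh1 at or below it.

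**Figure D1:**
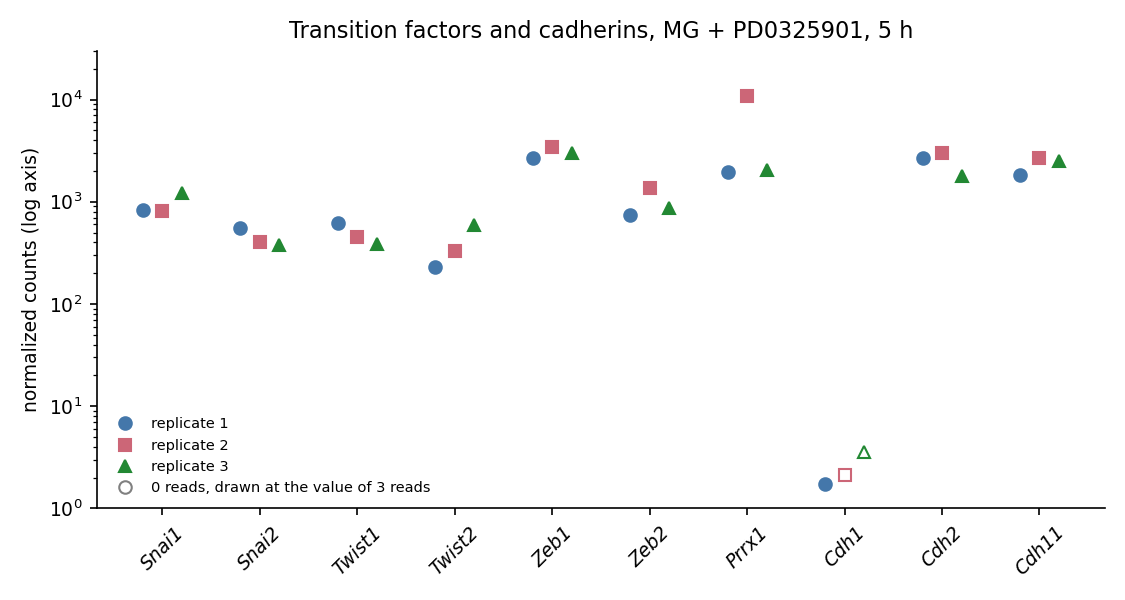
Normalized counts of the 10 genes on a log axis, 1 point for each of replicates 1, 2 and 3 of MG + PD0325901, with open points drawn at the value of 3 reads where a library had 0 reads. Prrx1 of replicate 2, at 10866, lies apart from the other libraries at 1975 and 2067, and Cdh1 has 1.74 normalized counts in replicate 1 and open points in replicates 2 and 3.

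Snai1, a Snail factor whose protein is short-lived, had 840, 803 and 1204 normalized counts in replicates 1, 2 and 3 (949 ± 222, SD, n = 3). Replicates 1 and 2 were close, and replicate 3 was 1.5-fold above replicate 2. Snai2, also named Slug and known from neural crest and from the edge of healing epidermis, had 548, 404 and 379 normalized counts (444 ± 91.0, SD, n = 3). Here replicate 1 was the high library, so the members of the pair did not share their order of replicates. Per kb of exon, the scale on which levels of different genes can be compared, Snai1 was above Snai2 by 1.91-, 2.48- and 3.95-fold in replicates 1, 2 and 3. The mean log2 ratio of Snai2 to Snai1 per kb was -1.41 ± 0.53 (SD, n = 3), and Snai1 was the higher of the pair in 3 of 3 libraries. Snai1 lies on chromosome 2 at 167538195 to 167542814 and Snai2 on chromosome 16 at 14705852 to 14709385 (GRCm38), each with 1 annotated transcript.

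Twist1, a basic helix-loop-helix factor of head mesenchyme and limb bud, had 617, 453 and 385 normalized counts (485 ± 119, SD, n = 3). Twist2, also named Dermo1 for its expression in dermis, had 232, 332 and 589 (384 ± 184, SD, n = 3). The libraries were in opposite order for these genes, with replicate 1 highest for Twist1 and lowest for Twist2. Twist2 was 2.54-fold higher in replicate 3 than in replicate 1. Twist1 stood above Twist2 per kb by 5.19-fold in replicate 1, 2.66-fold in replicate 2 and 1.28-fold in replicate 3, a mean log2 ratio of Twist2 to Twist1 of -1.38 ± 1.01 (SD, n = 3). When the longest coding transcript was taken as the length, these values were 4.13-, 2.12- and 1.01-fold, so that in replicate 3 the pair was level. Twist1 lies on chromosome 12 at 33957671 to 33959829 and Twist2 on chromosome 1 at 91801461 to 91848028.

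Zeb1, a zinc finger repressor of Cdh1, had 2669, 3415 and 2966 normalized counts (3016 ± 375, SD, n = 3), the narrowest range of the 9 detected genes at 1.28-fold. Zeb2, its paralog, known for its roles in neural crest and in myelinating glia, had 741, 1348 and 861 (983 ± 322, SD, n = 3), with replicate 2 the high library. Replicate 2 was also highest for Zeb1, and the range of Zeb2 was 1.82-fold. Per kb, Zeb1 exceeded Zeb2 by 7.0-, 4.92- and 6.69-fold in replicates 1, 2 and 3, a mean log2 ratio of Zeb2 to Zeb1 of -2.62 ± 0.28 (SD, n = 3). This ratio had the smallest SD between replicates of the 4 ratios taken between detected paralogs and cadherins. Both genes have many annotated transcripts, 12 for Zeb1 and 29 for Zeb2, and with the longest coding transcript as the length Zeb1 was 5.67-, 3.98- and 5.42-fold above Zeb2. Zeb2 lies on chromosome 2 at 44983632 to 45117395 and Zeb1 on chromosome 18 at 5591860 to 5775467. The antisense gene Zeb2os, which overlaps Zeb2, had 28.7, 17.6 and 14.2 normalized counts. Whether reads were counted by strand is not given in the sources used here.

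Prrx1 had 1975, 10866 and 2067 normalized counts in replicates 1, 2 and 3 (4969 ± 5107, SD, n = 3). Replicates 1 and 3 differed by 1.05-fold, while replicate 2 was 5.26-fold above the higher of them. The mean and SD of this gene are therefore set by 1 library, and without replicate 2 its mean was 2021. On the log2 scale replicate 2 was 2.43 above the mean of the other libraries, whereas the middle 90% of all detected genes in that library lay between -1.06 and 1.14. Its close relative Prrx2 did not share this order and had 2416, 1919 and 2448 normalized counts. Other genes that were highest in replicate 2, named after their values were seen, included Thy1 (7.76-fold over replicate 1), Cdh3 (15.8-fold), Krt19 (5.08-fold), the muscle filament gene Des (5.69-fold) and the endothelial receptor gene Tek, which had 6.95, 185 and 2.37 normalized counts. The remaining markers of muscle, Myod1, Myf5, Pax7 and Cdh15, had 0 reads in every library. Of the remaining endothelial markers Pecam1 had 9.55, 3.52 and 2.37 normalized counts, Kdr 4.34, 1.41 and 0, and Cdh5 0, 0 and 1.19. Tie1 had no read. The part of cell composition in the Prrx1 value of replicate 2 was not tested. Prrx1 lies on chromosome 1 at 163245119 to 163313710, and no overlapping gene with a value exceeded 7.05 normalized counts.

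Of the 9 detected genes, Prrx1 and Twist2 went beyond the middle 90% of all detected genes in a library. Twist2 was 1.08 above the mean of the other libraries in replicate 3 and 0.93 below it in replicate 1, on the log2 scale. The corresponding bounds over all detected genes were 0.68 in replicate 3 and -0.83 in replicate 1. Zeb2 of replicate 2, at 0.75, and Cdh2 of replicate 3, at -0.66, stayed within them.

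**Figure D2:**
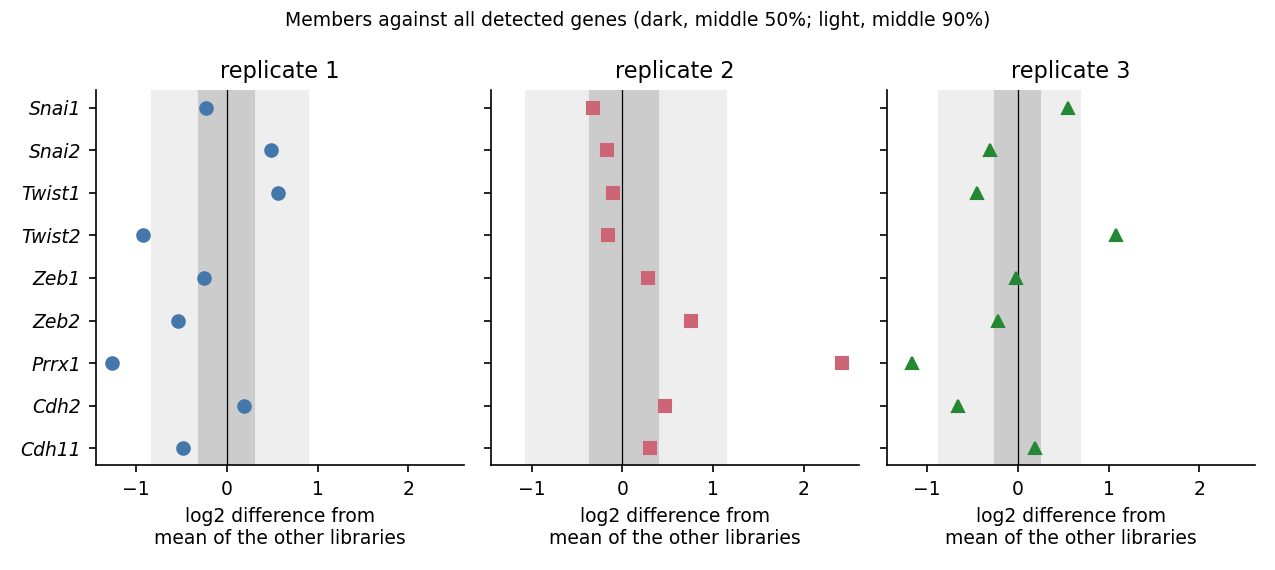
Log2 difference of each replicate from the mean of the other 2 libraries for the 9 detected genes, with the middle 50% (dark) and 90% (light) of all detected genes shaded. Prrx1 lies outside the light band in each panel, at -1.26, 2.43 and -1.16 in replicates 1, 2 and 3, and Twist2 lies outside it in replicates 1 and 3. For Prrx1 in replicates 1 and 3, the mean of the other libraries includes the high replicate 2. Replicates 1 and 3 themselves differed by 1.05-fold for Prrx1.

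The summed level of the 7 transition factors was 1717, 2461 and 1872 normalized counts per kb in replicates 1, 2 and 3. Without Prrx1 the other 6 factors summed to 1539, 1479 and 1685 per kb (1567 ± 106, SD, n = 3), a range of 1.14-fold. The sum of the 6 was thus narrower in range than any of its members, in which opposite orders of replicates met. Snai1 made up 30.2, 20.1 and 39.7% of the summed level of the 7 factors and was the largest share in replicates 1 and 3. Prrx1 made up 10.4, 39.9 and 9.98% and was the largest in replicate 2. Zeb1 held 14.7 ± 1.03% (SD, n = 3) and Zeb2 2.41 ± 0.304%, the smallest share in each library on the scale of exon length. These shares sum to the whole in each library, so the high share of Prrx1 in replicate 2 lowers those of the others there.

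**Figure D3:**
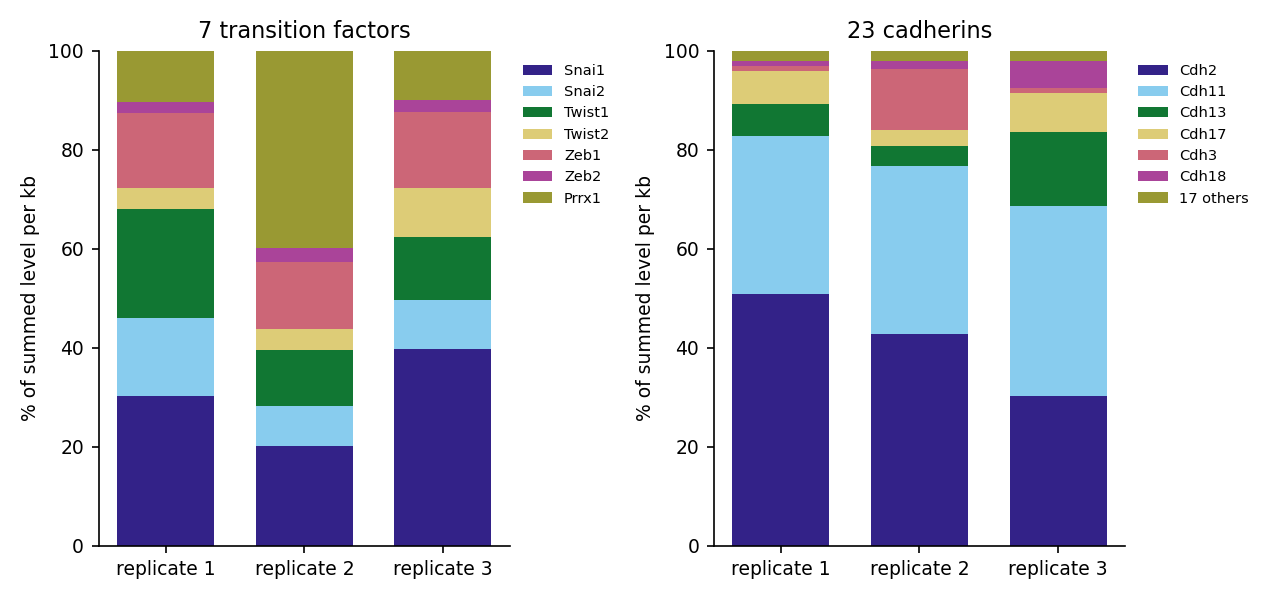
Stacked bars of the share, in percent of the summed level per kb, that each gene held in replicates 1, 2 and 3, for the 7 transition factors in 1 panel and for 23 classical and related cadherins in the other. Prrx1 took 39.9% of the factors in replicate 2, and Cdh2 and Cdh11 together took 82.8, 76.6 and 68.7% of the cadherins.

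Cdh1 was at the floor of detection. It had 2, 0 and 0 reads, or 1.74, 0 and 0 normalized counts, where a count of 0 allows up to 2.11 in replicate 2 and 3.56 in replicate 3. Cdh2 had 2661, 3026 and 1791 normalized counts (2493 ± 635, SD, n = 3), with replicate 3 low. Cdh11 had 1843, 2658 and 2513 (2338 ± 435, SD, n = 3), with replicate 1 low. In replicate 1 the level of Cdh2 per kb was 869-fold that of Cdh1, with an exact 95% interval of 240 to 7179 that reflects the 2 Cdh1 reads. With Cdh1 set at 3 reads in each library, Cdh2 was at least 812-fold higher in replicate 2 and at least 286-fold higher in replicate 3, and Cdh11 at least 646- and 363-fold higher.

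Cdh2 and Cdh11 had similar levels per kb, and which of them was higher depended on the library. Cdh2 was above Cdh11 by 1.59-fold in replicate 1 and by 1.26-fold in replicate 2, while Cdh11 was 1.27-fold above Cdh2 in replicate 3. The mean log2 ratio of Cdh11 to Cdh2 was -0.22 ± 0.52 (SD, n = 3), smaller in size than its SD, and it was 0.00796 without replicate 1. Neither gene was higher in 3 of 3 libraries. Cdh1 lies on chromosome 8 at 106603351 to 106670246 and Cdh11 on the same chromosome at 102632095 to 102785642, and Cdh2 lies on chromosome 18 at 16588877 to 16809246.

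Among 20 further cadherins 6 were detected, a share near the 28.1% of all rows, and 8 had 0 reads in every library. Cdh13, which encodes T-cadherin, a cadherin anchored to the membrane by a lipid, had 465, 406 and 1222 normalized counts. Cdh3, which encodes P-cadherin of basal epidermis and hair follicle, had 29.5, 473 and 36.7, so that its high library was replicate 2, as for Prrx1. Cdh17, known as the liver-intestine cadherin, had 193, 127 and 258, and Cdh18 had 32.1, 68.3 and 179. Cdh23, known from hair cells of the inner ear, had 39.1, 14.1 and 42.7, and Cdh24 had 24.3, 35.9 and 35.6. The highest library was more than 2-fold above the lowest for 5 of these 6 genes, Cdh24 being the exception, beside 22% of all detected genes. Cdh2 and Cdh11 stayed within 1.69- and 1.44-fold. Their lowest libraries had 1511 and 2120 reads, whereas those of Cdh3, Cdh18 and Cdh23 had 31, 37 and 20. Cdh2 held 50.9, 42.7 and 30.3% of the summed cadherin level per kb and Cdh11 31.9, 34.0 and 38.5%. Cdh3 held 12.3% of that sum in replicate 2 and 1.04 and 1.14% in replicates 1 and 3, and Cdh13 held 14.8% in replicate 3.

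Catenins link the tails of cadherins to actin, and 8 of 10 were detected. Ctnnb1, encoding beta-catenin, had the highest level per kb at 2164 ± 175 (SD, n = 3), followed by Ctnna1, encoding alpha-catenin, at 1061 ± 107. Ctnnd1, which encodes p120-catenin, the protein that keeps cadherins at the membrane, had 4390, 1950 and 1816 normalized counts, with replicate 1 high. Jup, encoding plakoglobin of desmosomes and adherens junctions, had 1158, 2196 and 1101, with replicate 2 high. Pkp4, Arvcf and Ctnnal1 had means of 850, 203 and 169 normalized counts. Ctnnd2, a catenin of neurons, had 42.5, 23.3 and 68.7, and Ctnna2, the neural alpha-catenin, had 0 reads.

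Ordered by mean level per kb the genes ran Snai1 (585 ± 137, SD, n = 3), Prrx1 (449 ± 462), Cdh2 (309 ± 78.7), Twist1 (298 ± 73.3), Zeb1 (294 ± 36.6), Cdh11 (263 ± 48.8), Snai2 (220 ± 45), Twist2 (121 ± 58.1), Zeb2 (49.3 ± 16.1) and Cdh1 (0.127 ± 0.219). The range of Prrx1 over the 3 libraries overlapped that of each of the other genes from Snai1 to Twist2. Snai1 lay above the ranges of Cdh2, Twist1, Zeb1, Cdh11 and Snai2, while the ranges of these 5 genes overlapped one another. By these ranges their order is not resolved beyond the spread between replicates. Compared inside each library, however, Zeb1 was above Cdh11, and Cdh2 and Twist1 were above Snai2, in every replicate. Snai2 and Twist2, Twist2 and Zeb2, and Zeb2 and Cdh1 did not overlap. For Snai2 and Twist2 the gap was narrow, at 188 against 186 per kb in replicate 3, less than the counting error of Snai2 there (5.59%). With the longest coding transcript as the length, of these pairs Zeb2 and Cdh1 alone remained apart, Snai1 overlapped Zeb1 and Cdh2, and Prrx1 stood first. By mean level, Twist2, Zeb2 and Cdh1 kept ranks 8, 9 and 10 in this order and in each order made without 1 replicate. In single libraries they kept them per kb of exon, but not by coding transcript length. On that scale Zeb2 was above Twist2 in replicate 2 (148 against 131 normalized counts per kb). Twist2 was above Snai2 in replicate 3 (233 against 188). Prrx1 ranked 7, 1 and 7 in replicates 1, 2 and 3. The median of all detected genes was 107 per kb, and Snai1 was above 85.9% of the 11620 detected genes that had a length, Twist2 above 53.1% and Zeb2 above 31.3%.

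**Figure D4:**
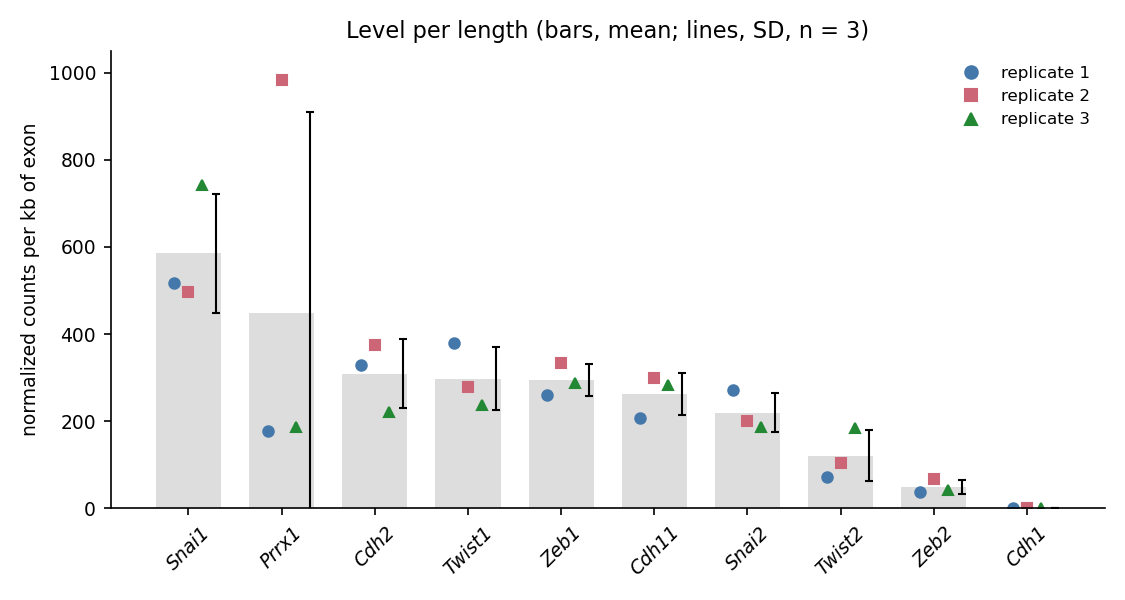
Normalized counts per kb of exon for the 10 genes in order of their mean, with bars for the mean, lines for the SD (n = 3) and a point for each replicate. The SD line of Prrx1 reaches below 0 and is cut at the axis, since replicate 2 lies at 982 and the other libraries at 178 and 187.

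Pairs of libraries were compared gene by gene with a two-sided exact binomial test on recovered reads, adjusted over every gene that had 10 or more reads in both libraries summed, which compares libraries and not conditions and covers counting error alone. Between replicates 1 and 2 the test was passed by 8 of the 9 detected genes, beside 68.4% of all genes tested. Snai2 and Twist1 were higher in replicate 1, and Twist2, Zeb1, Zeb2, Prrx1, Cdh2 and Cdh11 in replicate 2. Snai1 did not pass (Benjamini-Hochberg adjusted p = 0.385, exact binomial test). Between replicates 1 and 3 again 8 of 9 passed, beside 51.1% of all genes. Snai2, Twist1 and Cdh2 were higher in replicate 1, and Snai1, Twist2, Zeb1, Zeb2 and Cdh11 in replicate 3, while Prrx1 did not pass (adjusted p = 0.234, exact binomial test). Between replicates 2 and 3 the test was passed by 7 of 9, beside 62% of all genes. Twist1, Zeb1, Zeb2, Prrx1 and Cdh2 were higher in replicate 2, and Snai1 and Twist2 in replicate 3. Snai2 (adjusted p = 0.459) and Cdh11 (adjusted p = 0.0627) did not pass the exact binomial test. With libraries scaled to equal totals, Zeb2 no longer passed between replicates 1 and 3 (adjusted p = 0.0685, exact binomial test) and Cdh11 passed between replicates 2 and 3 (adjusted p = 7.86e-06, exact binomial test).

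Most of these differences were small. When more than a 2-fold difference was required as well, 1 of the 9 genes passed in each pair: Prrx1 between replicates 1 and 2 (beside 20% of all genes), Twist2 between replicates 1 and 3 (beside 8.84%), and Prrx1 between replicates 2 and 3 (beside 16.2%). The median size of the log2 difference was 0.45 over the 9 genes and 0.49 over all genes between replicates 1 and 2. It was 0.52 against 0.32 between replicates 1 and 3, and 0.58 against 0.42 between replicates 2 and 3. By calls in both pairs concerned, Snai2 and Twist1 were higher in replicate 1 than in the other libraries, Zeb1, Zeb2, Prrx1 and Cdh2 in replicate 2, and Snai1 and Twist2 in replicate 3.

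Among 13 further factors of mesenchymal transition 11 were detected, and Snai3 and Gsc had 0 reads. Prrx2, the partner homeobox gene of Prrx1 in limb and face, reached 1153 ± 151 normalized counts per kb (SD, n = 3), above the mean of every gene of the set. Tcf3, which encodes E proteins that pair with Twist factors, had 264 ± 14.9 per kb, and Sox4 187 ± 59.4. The widest ranges were those of the forkhead genes Foxc1, at 287, 97.9 and 199 normalized counts, and Foxq1, at 33.9, 18.3 and 14.2. Of 10 genes that maintain the epithelial state 2 were detected, beside 28.1% of all rows. Esrp2, an epithelial splicing regulator, had 177, 199 and 177 normalized counts, and Klf5 had 37.3, 14.1 and 23.7. Its paralog Esrp1 and the factor Ovol2, which represses Zeb1 in epithelia, had 0 reads.

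Genes that act with or on the Snail and Zeb proteins were all detected. Of 12 cofactors 0 exceeded a 2-fold range. Loxl2, a lysyl oxidase that is also reported to act on Snail, was highest at 4885 ± 474 per kb, followed by the corepressor Ctbp1 at 733 ± 14.6 and the histone deacetylase Hdac2 at 487 ± 117. The widest ranges were 1.87-fold for Rcor1 and 1.73-fold for Ctbp2. Of 12 genes of Snail phosphorylation and turnover 1 exceeded a 2-fold range, the kinase gene Pak1, at 1697, 738 and 1389 normalized counts, and Fbxo11 followed with a range of 1.69-fold. The highest levels per kb were those of the kinase genes Csnk1a1 (634 ± 62.9) and Gsk3a (609 ± 37.1) and of Fbxw11 (508 ± 59.1), a ubiquitin ligase subunit that recognizes phosphorylated Snail.

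Genes that carry out the epithelial and the mesenchymal state were read on the same scale. Of 20 epithelial junction genes 6 were detected, a share near the 28.1% of all rows, with a median of 1.80 normalized counts per kb over the list. Among the highest were Krt19, with 105, 536 and 143 normalized counts, and Tjp1, which encodes a ZO protein that fibroblasts also make, at 140 ± 19.4 per kb. Cldn1, encoding claudin-1 of tight junctions, had 11.3, 11.3 and 60.4 normalized counts. All 17 mesenchymal genes were detected, at 2.82 to 118948 per kb with a median of 7215. S100a4, also named fibroblast-specific protein, had 118948 ± 38260 per kb, and the contractile genes Acta2 and Tagln had 79742 ± 12548 and 50088 ± 7899. Postn, encoding the matrix protein periostin, had 482, 1735 and 111 normalized counts, the 1 mesenchymal gene over a 2-fold range, with replicate 2 high as for Prrx1. Fn1, encoding fibronectin, was next at a range of 1.97-fold.

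**Figure D5:**
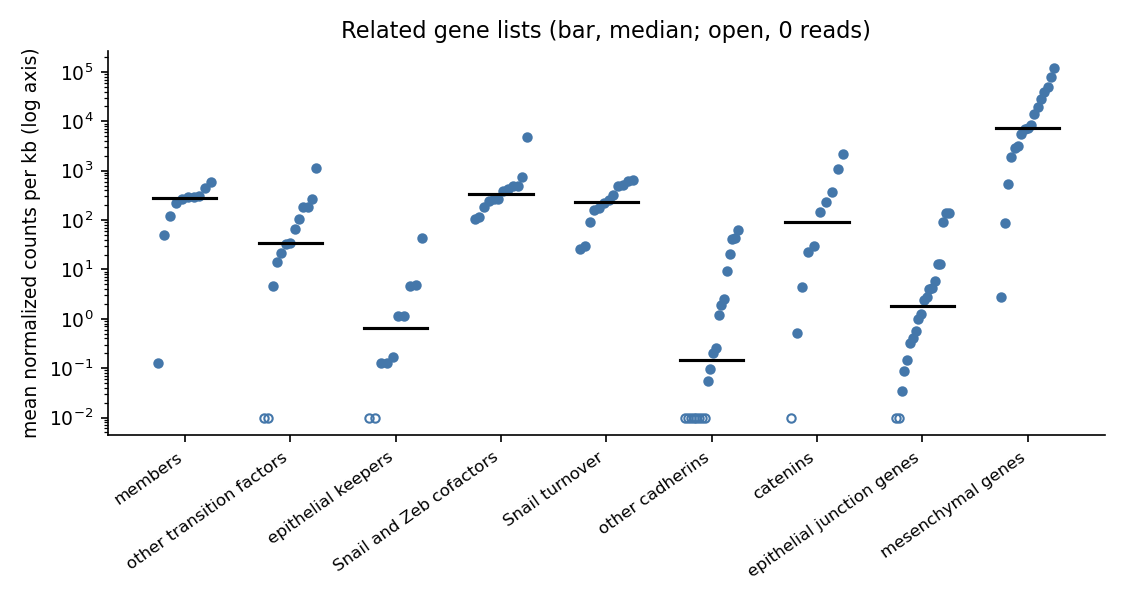
Mean normalized counts per kb on a log axis for each gene of the set (first column) and of 8 related lists, with bars for the median and open points at the bottom for genes with 0 reads. Mesenchymal genes have a median of 7215 and epithelial junction genes of 1.80, and the 10 genes of the set have a median of 278 with Cdh1 alone below the other 9.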

How the data were processed

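RNA-seq libraries of 3 biological replicates (MG + PD0325901, 5 h) were analysed. The authors made stranded mRNA libraries, aligned single-end reads to mm10 with TopHat2 2.0.13, counted reads per gene with HTSeq 0.5.3p3 and normalized with DESeq, by the methods and processing notes. The annotation and strand setting of the counting are not given in the sources used here. The deposited signal is normalized counts, and 3 further columns of values were not used because their names match no sample. Divided by the value of 1 read, 100% of the values in each library came out whole within 0.1 read, so reads were recovered, with size factors of 0.844 to 1.42. Exon lengths and positions came from GENCODE M21 (GRCm38), which held 39457 of the names. Log2 values used a pseudocount of 1. Detection required 10 normalized counts in each library. For each pair of libraries an exact binomial test (two-sided) was run on the reads of genes that had 10 or more. Benjamini-Hochberg adjustment was at 0.05. This step was tested on simulated reads that held counting error alone. That simulation cannot show how the binomial test behaves under the spread between replicates. Since there was 1 condition, edgeR 4.0.16 (R 4.3.3) was used for TMM scaling alone. Python 3.11.15, numpy 2.4.6, scipy 1.17.1 and pandas 2.3.3 were used otherwise. The genes of the set and the gene lists were chosen with earlier results of these data known. From each list the text names the 3 genes highest per kb, the 2 detected genes of widest range, detected cadherins and catenins, and cell type markers, apart from items that are not reported here. Genes named as high in replicate 2 and genes at 0 reads were chosen after their values were seen. Alternatives were other pseudocounts, minimums, fold limits, scalings and lengths, and each replicate left out.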

Additional observations from a re-analysis of the deposited data

How the results depend on the processing

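The count of genes over a 2-fold range was 2, and it was 5 at a limit of 1.5-fold and 1 without any 1 of the replicates. The median SD of 0.345 ranged from 0.315 to 0.413 with 1 replicate left out. Of the 10 genes, 5 to 8 kept their rank per kb when 1 replicate was left out (5 without replicate 2, 6 without replicate 1) and 4 did with the longest coding transcript as the length, which also moved the log2 ratio of Zeb2 to Zeb1 from -2.62 to -2.31. The log2 ratio of Cdh11 to Cdh2 was -0.22 and ran from -0.50 to 0.00796 with 1 replicate left out, its sign turning without replicate 1. The calls between pairs of libraries, 8, 8 and 7 of 9 genes, fell to 1 each when more than 2-fold was required, and were 8, 7 and 8 with libraries scaled to equal totals, which moved the median log2 difference of all genes between replicates 2 and 3 from 0.02 to 0.12. A further 43 values of these results and 50 levels of single genes under the alternatives moved by less than the spread between replicates, or within 1.5 times for counts. For a mean level or mean ratio, leaving out 1 of 3 libraries cannot cause a move beyond that spread. Those cases therefore say nothing about stability. The mean of Prrx1, counted among them, fell from 4969 to 2021 without replicate 2. No paired analysis was possible because the libraries form 1 group. Depth limits Cdh1 alone among the 10 genes, where 2 reads in all were counted. The cause of these moves, beyond the smaller number of libraries, the stricter limit or the other length, was not tested.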
